A study of Drosophila melanogaster with 3 samples.

Results

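The 7 genes described here are regulators of the Drosophila airway (the trachea) and of the salivary gland: trh, tgo, vvl, btl, bnl, CrebA and sage. They were taken by their symbols in the annotation of the dm6 genome build, out of 13945 protein-coding genes, and 7 of 7 symbols matched. The data are chromatin immunoprecipitation followed by sequencing (ChIP-seq) of the homeodomain protein HHEX (CG7056) in whole embryos of both sexes, aged 0 to 24 h, from a transgenic line that carries HHEX with GFP at its C-terminus and was precipitated with an antibody to GFP. There were 3 biological replicates of this 1 group and no second condition. The promoter that drives the tagged protein is not given in the sources used here, and no untagged line was analysed, so enrichment that any GFP precipitation would give cannot be told apart from HHEX sites. Each value is an average over the whole embryo, so few cells with strong binding and many cells with weak binding cannot be told apart.

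The trachea forms from patches of ectoderm that invaginate and send out branches. Trachealess (trh), a bHLH-PAS transcription factor, starts this fate together with its partner Tango (tgo), and the POU-homeodomain factor Ventral veins lacking (vvl, also called drifter) acts beside them. Branches then grow towards sources of the FGF ligand Branchless (bnl), which the tracheal cells read through the FGF receptor Breathless (btl). The salivary gland is another ectodermal tube. There the bZIP factor CrebA raises the capacity for secretion, the bHLH factor Sage acts in the secretory cells, and trh is used in the duct.

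Peaks are the 5586 regions of the list that passed the irreproducible discovery rate (IDR) procedure, which sets how many regions to keep from the agreement between replicates. They are the 5586 regions of highest signal in the list from pooled reads, so a single peak in it can rank differently in the replicates. A region's signal is the value the authors' peak caller gave it, and rank 1 is the highest. Over all IDR peaks the signal had a median of 255.0 and ran from 156 to 5323. Each replicate list and the list from pooled reads hold 30000 regions, most of them background. At a −log10 q of 2 or more, replicate 2 had 3212 regions, replicate 1 had 9759 and replicate 3 had 6498. Read depth is unknown.

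Peaks at start sites and in gene bodies were found at 3 of the 7 genes. trh, bnl and CrebA had an IDR summit within 1000 bp of a transcription start site (TSS), and the same 3 had one inside the gene body. At trh the same summit counted in both, since it lay beside a TSS that is inside the gene body. Among all protein-coding genes 23.2% had a summit at a TSS and 14.4% had one in the body. With 5000 bp added at both ends, tgo and sage also had a summit, which made 5 of 7 genes against 50.5% of all protein-coding genes, and these 2 summits lay at the start sites of neighbouring genes. btl and vvl had no IDR summit in that window. Member bodies had a median length of 7458 bp, against 2166 bp over all protein-coding genes, and a longer gene has more room for a summit. The part of length in the counts was not tested.

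**Figure D1:**
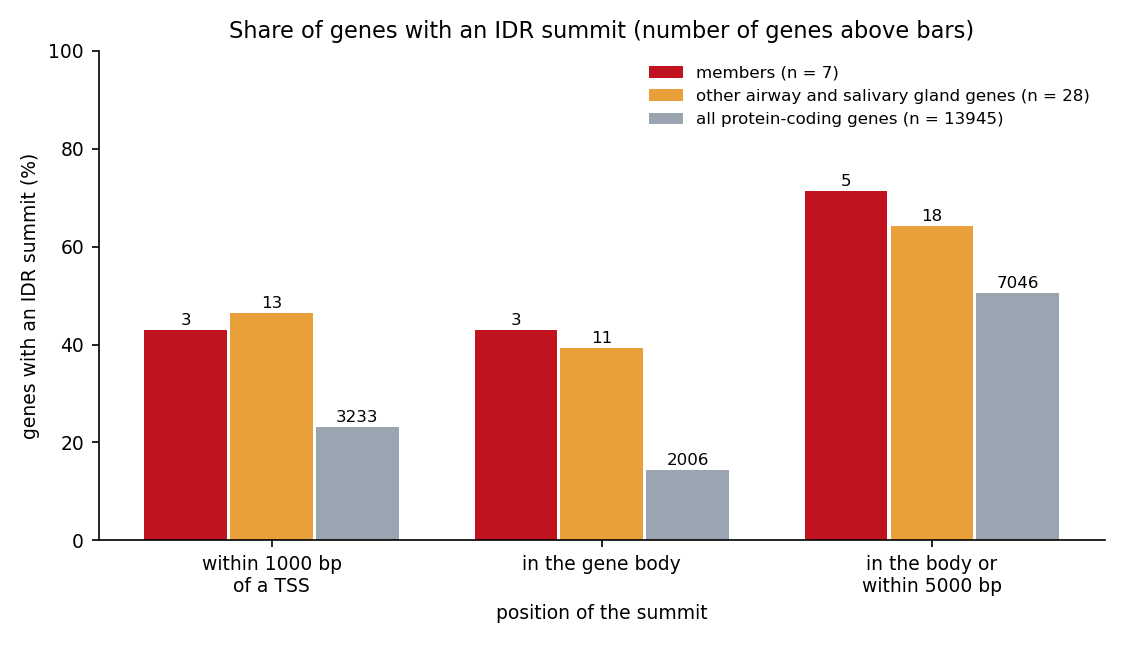
Percent of genes (vertical axis) with an IDR summit at each position (horizontal axis), for the 7 genes (members, red), 28 other airway and salivary gland genes (orange) and all 13945 protein-coding genes (grey), with the number of genes above each bar. The 7 genes stand at 42.9%, 42.9% and 71.4%, against 23.2%, 14.4% and 50.5% of all protein-coding genes.

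In all, 11 IDR summits lay in the bodies of the 7 genes or within 5000 bp of them, or 0.633 per 10 kb. Over the same windows of all protein-coding genes the density was 0.475 per 10 kb, and over the 6 arms it was 0.417. CrebA alone held 5 of the 11, at 1.8 per 10 kb of its window. The density was 0.87 at sage, 0.755 at tgo, 0.569 at bnl, 0.277 at trh and 0 at vvl and btl. In the gene bodies alone it was 0.482 for the 7 genes, against 0.395 for all protein-coding genes. The nearest TSS of any gene belonged to trh, bnl or CrebA for 7 of the 11. For the other 4 it belonged to Kcmf1, ATP6AP2 or AGO2. The median signal of the 11 was 209, against 255.0 over all IDR peaks, and 3 of the 11 lay above that median. They were the trh peak, the peak in the bnl body nearest to its TSS and the first peak in the CrebA body.

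The sequences at the summits show what those 3 peaks have in common and where the bnl promoter differs. Each is the 200 bp around the summit on the forward strand of genome release 6, as held by RefSeq. Capitals mark the words searched for on both strands. Those of homeodomain proteins were TAATTA with its variants CATTAA and CAATTA. The others were TACGTG of the Trh and Tgo pair and ATGCAAAT of POU factors, CATATG of bHLH factors and GAGAG of the GAGA factor, and TATCGATA and the word GGTCACAC of core promoters. Words of 1 kind can overlap each other.
trh intron, chr3L:377601-377800: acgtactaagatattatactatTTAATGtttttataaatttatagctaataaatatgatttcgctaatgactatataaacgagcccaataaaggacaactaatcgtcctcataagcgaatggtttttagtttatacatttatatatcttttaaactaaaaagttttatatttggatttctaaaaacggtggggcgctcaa
CrebA intron, chr3L:15538054-15538253: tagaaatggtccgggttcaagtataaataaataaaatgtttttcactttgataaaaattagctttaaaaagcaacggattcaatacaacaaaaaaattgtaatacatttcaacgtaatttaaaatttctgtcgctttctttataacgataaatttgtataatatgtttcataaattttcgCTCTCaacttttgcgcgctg
bnl intron, chr3R:19831076-19831275: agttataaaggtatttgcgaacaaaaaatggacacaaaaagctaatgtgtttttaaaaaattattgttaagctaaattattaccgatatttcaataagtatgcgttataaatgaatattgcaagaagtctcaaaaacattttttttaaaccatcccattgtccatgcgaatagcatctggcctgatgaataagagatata
bnl TSS, chr3R:19836800-19836999: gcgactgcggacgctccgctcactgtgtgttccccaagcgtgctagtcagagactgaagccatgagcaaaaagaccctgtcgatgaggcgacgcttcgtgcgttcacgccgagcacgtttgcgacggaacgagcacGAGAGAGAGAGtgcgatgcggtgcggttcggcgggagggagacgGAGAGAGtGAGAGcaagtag
CrebA upstream, chr3L:15534839-15535038: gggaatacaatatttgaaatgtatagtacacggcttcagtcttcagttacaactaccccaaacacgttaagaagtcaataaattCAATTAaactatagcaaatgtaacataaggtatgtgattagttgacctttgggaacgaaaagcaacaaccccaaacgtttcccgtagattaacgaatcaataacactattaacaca

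The intronic trh and CrebA windows had a GC content of 26.5% each, and the bnl intron had 28.0%. The bnl TSS had 61.0%. Over all IDR summits the median was 36%, and the 5th and 95th percentiles were 26% and 51%. The 3 most A/T-rich windows of the 11 were thus the 3 strongest peaks by pooled signal and in replicate 2. In replicate 1 the CrebA peak 13568 bp downstream (110, 42.5% GC) and the ATP6AP2 peak (105, 36%) exceeded the CrebA and bnl introns (88.4 and 100.2). In replicate 3 the CrebA peak 1749 bp upstream (98.1, 38.5%) and the AGO2 peak (91.0, 38%) exceeded them (88.0 and 87.8). Spearman's rho between pooled signal and GC content was -0.743 over the 11 summits and -0.163 over all 5586. Both are given as descriptions, since summits share the same libraries and neighbouring summits share a locus.

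Of the 11 windows, 8 held at least 1 searched word, and 5 of the 9 words were present. The share of all IDR summits that held at least 1 word is not given here, so the 8 has no comparison. Of the homeodomain words, TAATTA was in 1 of 11 windows against 16.6% of all IDR summits, in the bnl intron 12418 bp downstream of the TSS. CATTAA was in 2 against 16.3%, once in the trh window and once at AGO2. CAATTA was in 2 against 18.9%, both upstream of CrebA. GAGAG was in 2 windows against 24.5% of all, and the bnl TSS window held 7 matches of it, some overlapping. CATATG was in 1 window against 8.13%, at ATP6AP2. None of the other words was in the 11 windows. TACGTG was in 0 against 4.33% of all IDR summits, ATGCAAAT in 0 against 3.20%, TATCGATA in 0 against 2.35% and GGTCACAC in 0 against 1.88%. Promoter windows, from 250 bp before to 50 bp after each TSS, were searched after these results were known. TACGTG was in 4 of the 10 windows of the 7 genes, at the inner trh TSS, the first btl TSS, the CrebA TSS and the inner sage TSS, against 6.09% of 19253 promoters. GAGAG was in 6 of the 10 against 33.1%, at both trh start sites, vvl, bnl, CrebA and the outer sage TSS. TAATTA was in 2 against 18.9%, at tgo and the outer sage TSS. CATATG was in 1 against 7.98%, at the outer sage TSS, and GGTCACAC in 1 against 6.72%, at tgo. The other 4 words were in 0 of the 10 windows. A word is a match of letters and not a site.

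**Figure D2:**
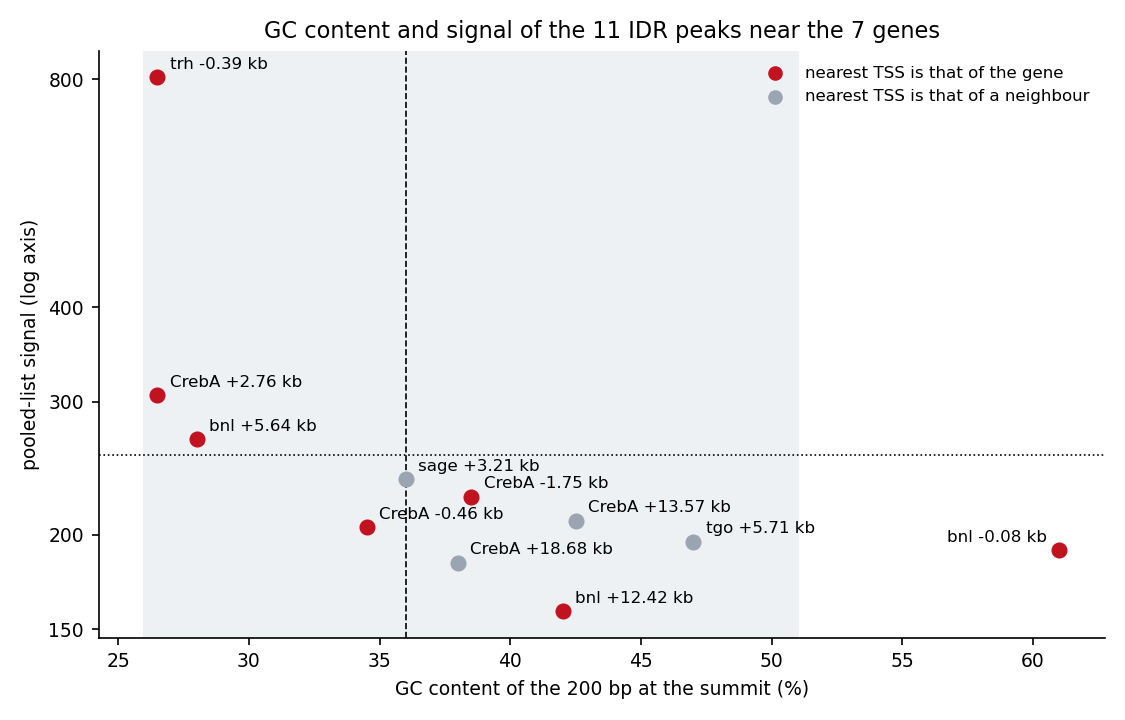
GC content of the 200 bp at each of the 11 IDR summits (horizontal axis, %) against its signal in the pooled list (vertical log axis), labelled by gene and offset from the nearest TSS of that gene, with the 5th to 95th percentiles of all IDR summits shaded and both medians over all IDR summits as lines. The trh, CrebA and bnl intronic peaks sit at the upper left with 26.5%, 26.5% and 28.0% GC, and the bnl TSS stands apart at 61.0%.

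trh (FBgn0262139) lies on the reverse strand of 3L, from 366524 to 392633. Its 7 annotated transcripts begin at 2 start sites. Of these transcripts, 5 begin at the inner TSS at 377316 and 2 begin at the outer TSS at 392633. The IDR peak (3L, 377648 to 377846) was 199 bp wide, against a median of 424 bp over all IDR peaks, and 10% of IDR peaks were narrower than 200 bp. Its summit at 377701 lay 385 bp upstream of the inner TSS, in an intron of the longer transcripts. In the pooled list it reached 805, at rank 385, within the upper 6.89% of IDR peaks.

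In the replicate lists the trh peak had a signal of 308, 221 and 263 in replicates 1, 2 and 3, at ranks 321, 579 and 388. The mean was 264 ± 43.6 (SD, n = 3). In each list it was above the other 10 peaks near these genes, and its lowest value, 221, was above their highest, 127. The 3 replicate summits lay 7, 15 and 12 bp from the pooled one. Set against the median of all IDR peaks in the same list, the trh peak was 3.25, 2.61 and 2.92 times as high.

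The outer trh TSS gave a different picture. Its strongest pooled region within 1000 bp had a signal of 51.0 at rank 28206, and no replicate list had a region there, where the lowest listed signals were 18.2, 20.6 and 20.1 in replicates 1, 2 and 3. The only trh region close to the threshold lay 2786 bp upstream of the outer TSS, outside the gene, with a signal of 147 at rank 6082. That region was in all 3 replicate lists with 41.1, 38.5 and 55.4. The lowest IDR signal was 156.

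tgo (FBgn0264075) encodes the partner that Trh and other bHLH-PAS proteins share. It lies on 3R from 9016773 to 9020022 on the reverse strand and had no IDR summit at its TSS or in its body. A region 301 bp inside the TSS, in the 5′ UTR, reached 92.3 among pooled regions, at rank 11806. The replicate lists gave it 38.3 in replicate 1 and 37.0 in replicate 3, and replicate 2 had no region in the whole tgo window. The IDR summit of this window (3R, 9014095 to 9014518, signal 196) lay 2466 bp past the 3′ end of tgo and 66 bp from the TSS of Kcmf1, which encodes an E3 ubiquitin ligase. It had 87.6 in replicate 1 and 82.9 in replicate 3, and no region in replicate 2.

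vvl (FBgn0086680), on the forward strand of 3L from 6790158 to 6794941, had no IDR peak either. Its window held 6 pooled regions. The strongest lay 2708 bp past the 3′ end, in intergenic sequence, with a signal of 121 at rank 8027. It had 36.4, 48.2 and 43.9 in replicates 1, 2 and 3, and its rank of 5508 in replicate 2 was the only one among the 5586 highest. Within 1000 bp of the TSS the highest pooled signal was 53.4, in the coding exon. The nearest IDR summit lay 33891 bp from the TSS, and 12.2% of protein-coding genes were at least as far from one.

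btl (FBgn0285896) lies on 3L from 14075772 to 14083229 and was the emptiest locus. The pooled list had 0 regions in its body or at its 2 start sites and 1 region in the window, 3255 bp past the 3′ end, with a signal of 95.5 at rank 11232. Replicate 1 had 0 regions in the window, replicate 2 had 5 and replicate 3 had 1. The region past the 3′ end had 31.2 in replicate 2 and 25.1 in replicate 3. Of all protein-coding genes, 28.8% had as few pooled regions in the window. The nearest IDR summit lay 20424 bp from a btl TSS, and 21.7% of protein-coding genes were at least as far from one.

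bnl (FBgn0014135), the ligand gene, is the longest of the 7 with 42745 bp on the reverse strand of 3R, from 19794073 to 19836817. It had 3 IDR peaks, and 11% of protein-coding genes had at least that many in the window. That share takes no account of gene length. Per 10 kb of window bnl had 0.569 summits, against 0.475 over the windows of all protein-coding genes. The peak at the TSS (19836688 to 19837111) had its summit 83 bp upstream of the start, with a signal of 191 at rank 4222. Its replicate values were 59.7, 56.6 and 70.9, a mean of 62.4 ± 7.49 (SD, n = 3). It was at rank 5970 in replicate 1, outside the 5586 highest of that list, and at ranks 4395 and 4085 in replicates 2 and 3.

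The strongest bnl peak lay in an intron 5641 bp downstream of the TSS (19830964 to 19831387), with a signal of 267 at rank 2605. It had 100.2, 84.8 and 87.8 in replicates 1, 2 and 3, a mean of 90.9 ± 8.17 (SD, n = 3), and these values did not overlap those of the TSS peak. The weakest bnl peak, also intronic and 12418 bp downstream of the TSS (19824187 to 19824610), had a signal of 158 at rank 5469, just above the lowest IDR signal. Its replicate values were 53.9, 38.0 and 49.2. A region 2659 bp downstream of the TSS fell just below the list, with a signal of 145 at rank 6158.

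CrebA (FBgn0004396) lies on 3L from 15535395 to 15553214 on the forward strand and had the most IDR peaks of the 7 genes, 5 in the window. At least that many lay in the windows of 2.50% of protein-coding genes, a share that takes no account of gene length. For the peak 13568 bp downstream of the CrebA TSS and for the last peak, the nearest TSS was that of AGO2. It lay 5150 bp and 36 bp away from them. Upstream of the CrebA TSS there were 2 peaks. The summit 456 bp upstream (15534727 to 15535150) had a signal of 205 at rank 3815, and 77.7, 64.0 and 62.3 in replicates 1, 2 and 3. The summit 1749 bp upstream (15533434 to 15533857) had a signal of 225 at rank 3354, and 73.7, 67.1 and 98.1 in the replicates. The values of these 2 upstream peaks overlapped.

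The strongest CrebA peak in the pooled list lay in an intron 2759 bp downstream of the TSS (15537942 to 15538365). Its signal was 306 at rank 2091, with 88.4, 127 and 88.0 in replicates 1, 2 and 3, a mean of 101 ± 22.2 (SD, n = 3). Replicate 2, which had the fewest regions at a −log10 q of 2, gave the highest value here, at rank 1404. The highest CrebA region was another peak in replicate 1 (13568 bp downstream, 110) and in replicate 3 (1749 bp upstream, 98.1). The other peak in the CrebA body, 13568 bp downstream of the TSS (15548751 to 15549174, signal 209), had the largest SD relative to its mean (0.537) of the 9 peaks seen in all 3 replicates. It had 110, 34.1 and 68.9 in replicates 1, 2 and 3, at ranks 2129, 10100 and 4246. The last peak (15553865 to 15554288, signal 184) lay 863 bp past the 3′ end of CrebA and 36 bp from the TSS of AGO2, the Argonaute of RNA interference. It had 81.3 in replicate 1 and 91.0 in replicate 3, and no region in replicate 2.

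sage (FBgn0037672) is the shortest of the 7 with 1489 bp, on the reverse strand of 3R from 9262654 to 9264142. It had no IDR summit at either of its 2 start sites or in its body. A pooled region 172 bp upstream of the outer TSS had a signal of 89.6 at rank 12303. The replicate lists gave it 26.5 in replicate 1 and 48.5 in replicate 3, and replicate 2 had no region within 1000 bp of a sage TSS. The IDR peak of the window (9260399 to 9260822, signal 237 at rank 3115) lay 2043 bp past the 3′ end of sage and 27 bp from the TSS of ATP6AP2, which encodes a protein associated with the vacuolar proton pump. It had 105, 62.5 and 72.5 in replicates 1, 2 and 3, a mean of 79.9 ± 22.1 (SD, n = 3). Its window read as follows, with a CATATG word in capitals.
ATP6AP2 TSS, chr3R:9260511-9260710: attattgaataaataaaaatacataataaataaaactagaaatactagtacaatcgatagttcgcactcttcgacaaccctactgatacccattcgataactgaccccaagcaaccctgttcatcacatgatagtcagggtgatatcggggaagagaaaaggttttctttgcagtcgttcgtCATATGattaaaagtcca

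**Figure D3:**
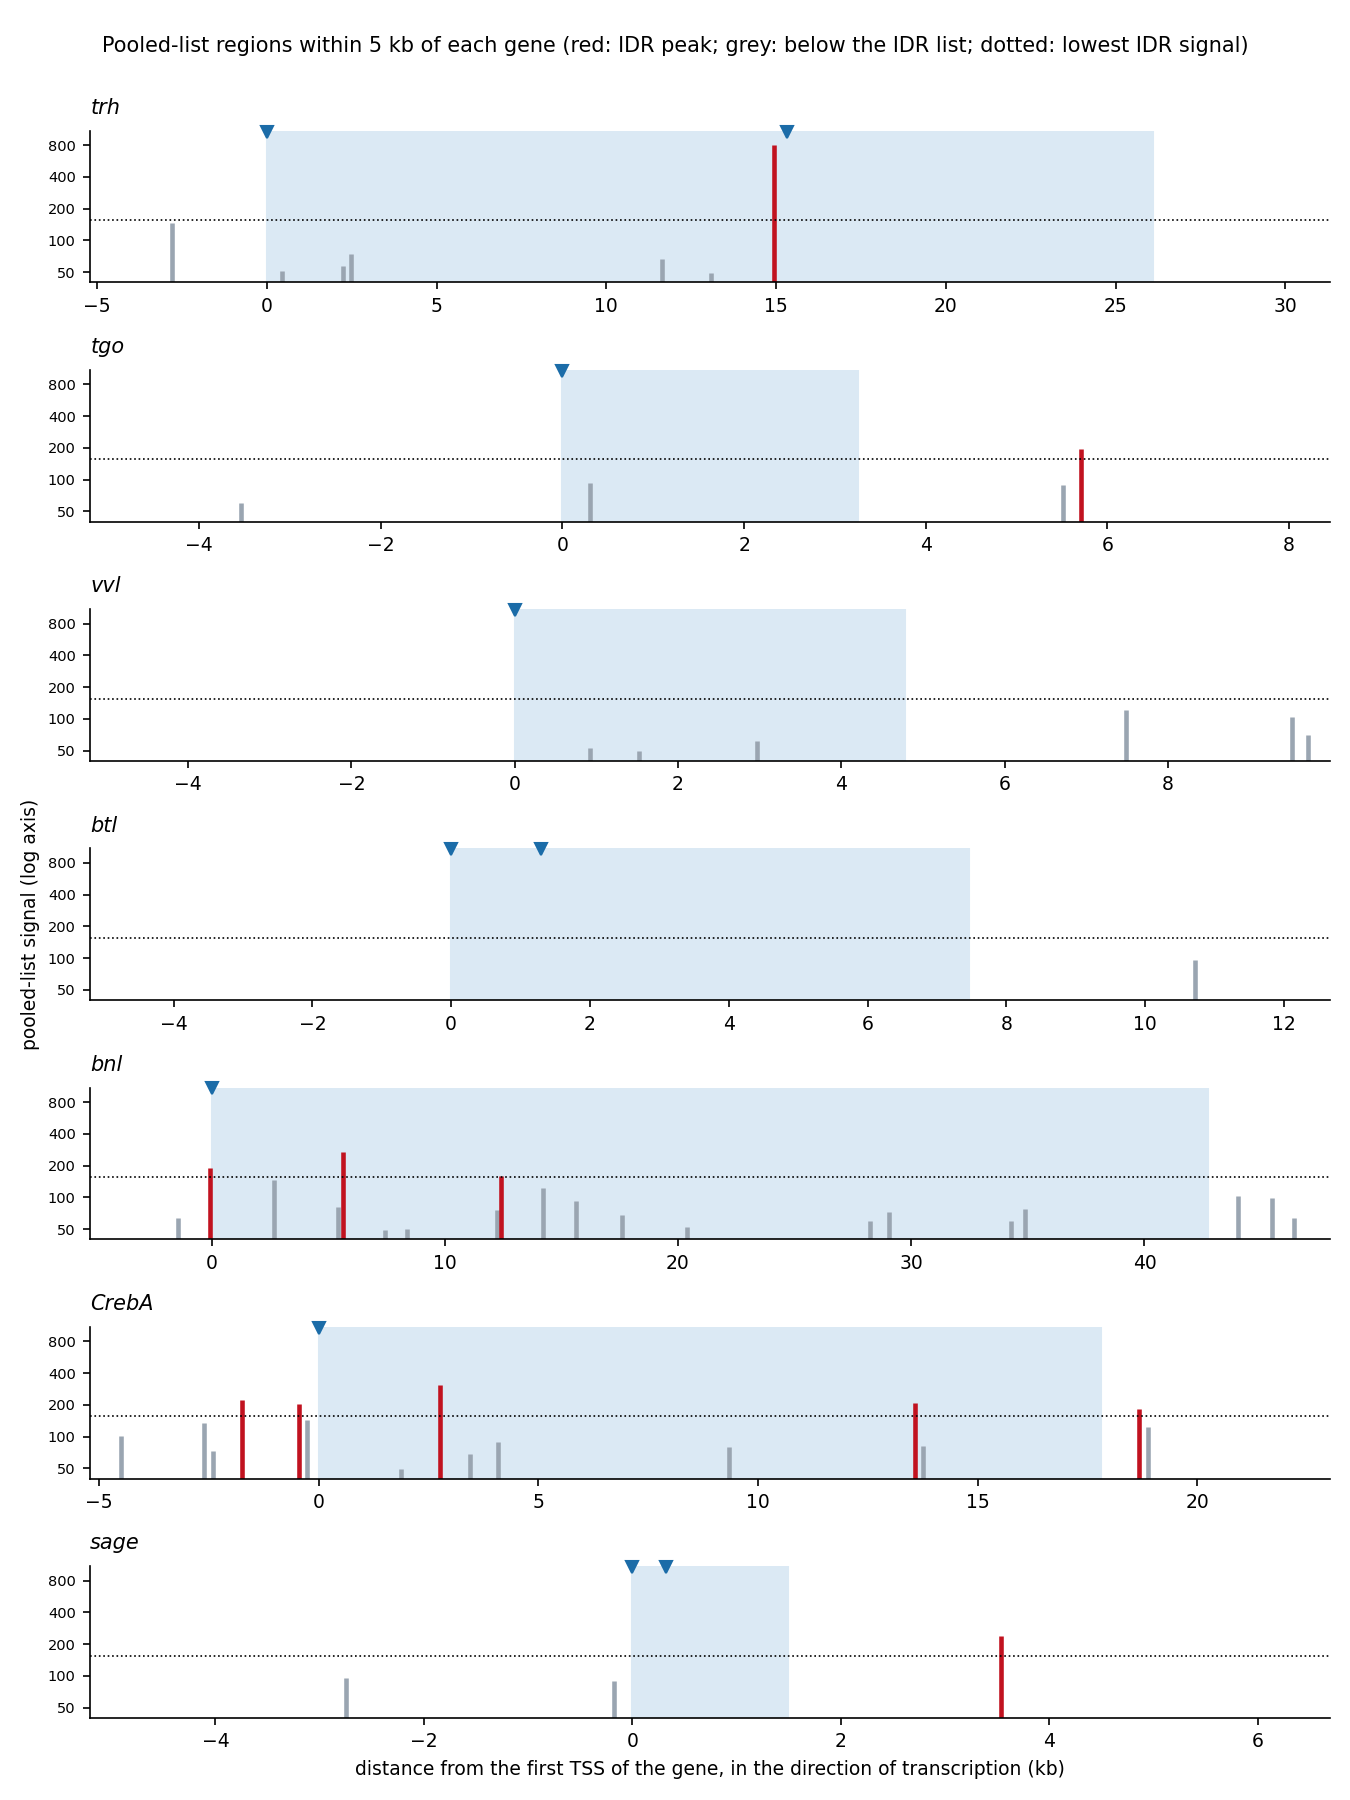
Signal of each pooled-list region (vertical log axis) by its distance from the first TSS of the gene in the direction of transcription (horizontal axis, kb), with the gene body shaded, start sites as triangles, IDR peaks in red, regions below the IDR list in grey and the lowest IDR signal dotted. trh shows 1 tall peak beside its inner TSS, bnl and CrebA show several lower ones, and no IDR peak lies in the btl and vvl windows.

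The genes were ordered by the mean replicate signal of the peak that was strongest in the pooled list. By this, trh came first with 264, then CrebA with 101, bnl with 90.9 and sage with 79.9. The place of tgo depended on replicate 2, which had no region there. Its mean was 85.2 over the 2 lists that held it, above sage, and 63.7 with replicate 2 set at the lowest signal of its list, below sage. trh did not overlap CrebA and was higher in 3 of 3 replicates. The values of CrebA overlapped those of bnl, and CrebA was higher in 2 of 3 replicates, though in replicate 3 only by 88.0 against 87.8. The values of bnl overlapped those of sage, and bnl was higher in 2 of 3 replicates. The tgo and sage values are those of the Kcmf1 and ATP6AP2 start sites. No test was made, since the 3 replicates belong to 1 group.

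**Figure D4:**
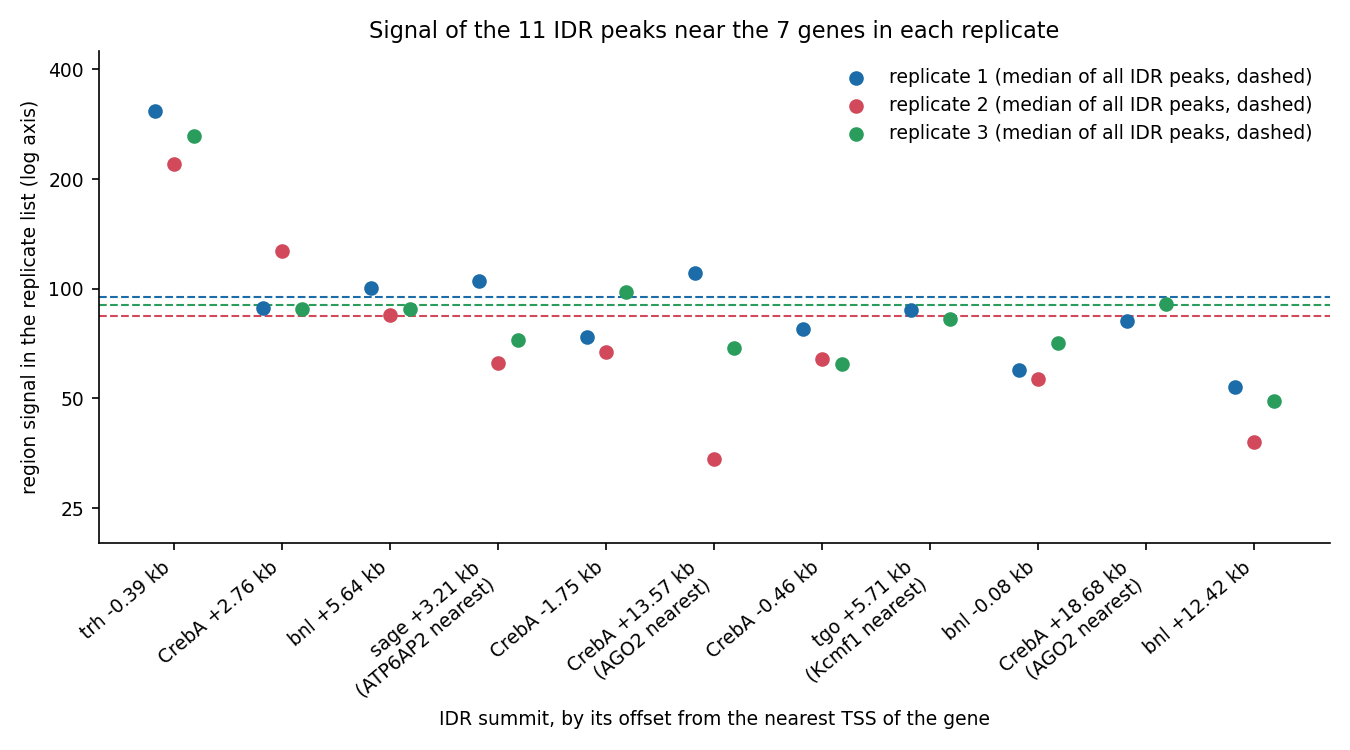
Signal in each replicate list (vertical log axis) of the region that holds each of the 11 IDR summits, ordered by pooled signal (horizontal axis), with 1 point per replicate and the median of all IDR peaks in that list dashed. The trh peak stands above the rest in each replicate, and points of replicate 2 are missing at Kcmf1 and at the AGO2 TSS.

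The peaks were then looked up in each replicate list. Of the 11 summits, 11, 9 and 11 lay in a region of replicates 1, 2 and 3, against 98.4%, 92.1% and 98.9% of all IDR summits. Both summits missing from replicate 2 were at start sites of neighbouring genes. The 5586 highest regions of replicates 1, 2 and 3 held 9, 7 and 10 of the 11 summits. Of all IDR summits they held 82.1%, 79% and 84.1%. In the highest regions of all 3 replicates were 6 of the 11, against 59.0% of all IDR summits. Replicate summits lay at most 40 bp from the IDR summit for 8 of the 11.

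Each replicate was then read on its own, through its 5586 highest regions. In replicate 1 only trh and CrebA had a summit within 1000 bp of a TSS, against 23.7% of all protein-coding genes, since the bnl region ranked just below. In replicates 2 and 3 it was trh, bnl and CrebA, against 21.7% and 23.4%. Within 5000 bp of the gene, 5 of 7 genes had a summit in each replicate, against 50.4% of all protein-coding genes in replicate 1, 48.8% in replicate 2 and 50.4% in replicate 3. In replicates 1 and 3 these were the 5 genes of the IDR list. In replicate 2 vvl stood in place of tgo.

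Below the IDR list, 45 further pooled regions lay in the 7 windows, with a median signal of 75.8. Of these, 11 were in all 3 replicate lists at their summit and 3 were in none. Among the 11, 3 were second regions beside IDR summits, at the CrebA promoter, in the CrebA body and in the bnl body. Each replicate list held both summits of such a pair in 1 region, so these 3 were not seen apart from the IDR peaks. The share over all pooled regions is not given. With any pooled region counted, 6 of 7 genes had one within 1000 bp of a TSS against 53.3% of all protein-coding genes, and 7 of 7 had one in the window against 84.2%. btl was the gene without one at a TSS.

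The other genes of the airway and salivary gland were counted in the same way, 28 in all. An IDR summit lay at a TSS of 13 of them (46.4%), in the body of 11 (39.3%) and within 5000 bp of 18 (64.3%), against 23.2%, 14.4% and 50.5% of all protein-coding genes. These genes had a median of 2 start sites and a body of 10732 bp, against 1 start site and 2166 bp over all protein-coding genes, and the part of size in the shares was not tested. By list, 8 of 16 airway genes and 5 of 12 salivary gland genes had a summit at a TSS. The 10 genes without an IDR summit within 5000 bp were kni, knrl, esg, salm, serp and kkv of the airway and exd, hkb, sens and toe of the salivary gland.

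The strongest TSS peak of the 28 genes was at fkh, the forkhead gene of the salivary gland (3R, 28585315 to 28585642), 227 bp from its TSS, with a signal of 1567 at rank 79. It had 593, 383 and 590 in replicates 1, 2 and 3, all above the trh values. ps, which encodes an RNA-binding protein, had a mean of 186 ± 42.1 (SD, n = 3), below trh in 3 of 3 replicates. sty, which encodes the FGF and EGF antagonist Sprouty, had 142, 147 and 142. Xbp1, a bZIP gene of the unfolded protein response, had 126, 130 and 111. stumps, the adaptor of the FGF receptor, had 151, 104 and 117.

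The remaining genes named by the same rule were weaker at the TSS. pnt, the ETS factor gene, had 96.3, 75.1 and 91.9 at its strongest TSS peak and 9 IDR summits in its body of 55937 bp. dysf, a bHLH-PAS gene of fusion cells, had 118, 74.1 and 74.1. eyg, a Pax gene, had 87.6 in replicate 1 and 111 in replicate 3, with no region in replicate 2. All these values are of TSS peaks. By pooled signal, a stronger IDR peak lay within 5000 bp of Xbp1 (575 against 394), pnt (469 against 275) and sty (424 against 407). At fkh, ps, stumps, dysf and eyg the TSS peak was the strongest in that window.

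The peaks most like that of trh across the 3 replicate lists were found by the distance between log2 signals, over 5019 other IDR peaks seen in all 3 lists. The nearest protein-coding genes were Hr4, a nuclear receptor gene, at a distance of 0.0980, scb, an integrin gene, at 0.102, and pigs at 0.104. The Hr4 peak lay 21981 bp from the Hr4 TSS, and those of scb and pigs lay 131 bp and 316 bp from theirs.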

How the data were processed

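ChIP-seq region lists on dm6 were used, 1 for each of 3 replicates, 1 from pooled reads and the IDR list. Per the deposited file descriptions, the replicate lists were called against a control alignment, which was not analysed here, and the IDR list was made from these lists together. Which aligner, caller and IDR cut-off were used is not stated in the labels or file descriptions. Each region's signal and −log10 q are values the authors deposited, and the signal was not rescaled between lists, so an SD over replicates includes any difference of scale. Lists on dm3 were not used, because no dm3 annotation was at hand.

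Genes came from Ensembl release 115 without transposable elements, on 6 arms, and sequence from RefSeq genome release 6, whose build matches dm6. A replicate value is the highest signal of a region that holds the IDR summit. A summit counted at a TSS within 1000 bp. No test was made: counts are given beside the share of all protein-coding genes. Counting was tested on simulated data with summits planted at 200 genes. The named genes were the 7, up to 8 of the 28 other genes with the highest TSS peak, neighbours with the nearest TSS, and the 3 peaks most like that of trh. Genes of the 28 without a summit were also named, chosen after their values were seen. The 7 genes, the lists and the words were chosen with earlier results of these data known. Python 3.11.15, numpy 2.4.6, pandas 2.3.3 and scipy 1.17.1 were used.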

Additional observations from a re-analysis of the deposited data

How the results depend on the processing

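Over 19 results, 43 alternative values stayed within 1.5 times the count or within 1 SD and 13 did not. In the 2793 IDR peaks with higher signal, 1 gene (trh) had a summit at a TSS and 3 had one within 5000 bp, with 3 summits in all. With an edge of 2000 bp the genes within reach were 3. Counting all pooled regions gave 5 genes with one in the body. Counting only summits whose nearest TSS belongs to the gene gave 7 summits. Shares of all protein-coding genes are not given for these settings or for the replicate sets that follow. A shorter list or narrower window can only lower a count, and a longer list can only raise it, for any genes. Leaving out 1 replicate, with IDR peaks kept where both others had them among their 5586 highest regions, gave 2 to 3 genes at a TSS, 3 in the body, 4 to 5 within 5000 bp and 6 to 9 summits; the lowest, 6, came without replicate 3 and 7 without replicate 1, sets that are smaller by construction. Leaving out 1 replicate moved the trh mean between 242 and 285, CrebA between 88.2 and 107, bnl between 86.3 and 94.0 and sage between 67.5 and 88.6, so trh stayed first and the order of the others changed. For tgo it gave 82.9 to 87.6, where leaving out replicate 1 or 3 leaves 1 list's value. With replicate 2, which had no region, set at the lowest signal of its list (chosen after seeing the data), the tgo mean was 63.7, and it was 51.7 without replicate 1 and 54.1 without replicate 3, both over 1.5 times lower than 85.2. In windows of 300 bp, wider by construction, CAATTA was in 4 of 11 against 25.9% of all IDR summits. GAGAG was in 4 of 11 there against 37% of all IDR summits. No paired analysis was possible because there is only 1 group, with no second condition to pair; peaks of the same libraries were compared within replicates. The files give regions and not reads, so absence from a list means only a signal below that list's lowest.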

Other observations

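Some IDR summits near these genes had a second pooled region beside them at a nearly fixed distance. A further pooled summit lay 190 to 210 bp away from 5 of the 11 summits, against 1211 of all 5586 (21.7%). At the CrebA promoter the pair had signals of 205 and 145, and at the AGO2 start site 184 and 124. In 3 of these pairs, those at the CrebA promoter, in the far CrebA intron and in the far bnl intron, each replicate list had a single region that held both summits. At Kcmf1 this was so in replicates 1 and 3, and at AGO2 in replicate 1. Its cause was not tested.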
